A study of Mus musculus with 2 samples.

Results

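The genes described here are 10 transcription factors of fat-cell formation: 7 Krüppel-like factors (Klf4, Klf5, Klf6, Klf7, Klf9, Klf13 and Klf15) and 3 early B-cell factors (Ebf1, Ebf2 and Ebf3). They were taken by gene symbol, from a list of names, out of 24421 genes listed for mouse 3T3-L1 cells, a fibroblast-like line that fills with lipid under a hormonal cocktail. The control group was 1 library of 3T3-L1 adipocytes that received no herbal preparation. The DF group was 1 library of 3T3-L1 adipocytes kept until harvest in medium with DF, a preparation of several herbs described as acting against obesity, which the sample title calls DF-GA70. The labels give both cultures passages 10 to 13 and a C57BL/6 background, which was not checked against the origin of the line. For both they give an induction of 2 days with insulin at 1 µg/mL, dexamethasone (a glucocorticoid) at 0.25 µM and 3-isobutyl-1-methylxanthine (a phosphodiesterase inhibitor) at 0.5 mM, followed by insulin alone. Neither the DF dose nor the harvest day is stated in the sources used here. The comparison asks how DF bears on the expression of genes that steer adipogenesis. With 1 library a group there is no replicate error, no test and no p-value, and each difference below is the DF value less the control value, in deposited log2 units.

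Krüppel-like factors bind CACCC and GC-rich boxes through zinc fingers near the carboxyl end. During adipogenesis they act in a relay: early members help switch on the C/EBP factors and Pparg, the nuclear receptor that drives fat-cell formation, and later members act in lipid-filled cells on genes of glucose and amino acid use. Early B-cell factors, first known from lymphocytes, bind a palindromic site, promote adipocyte differentiation through Cebpa and Pparg, and in the case of Ebf2 mark precursors of brown and beige fat.

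The libraries held adipocyte RNA. All 10 adipocyte markers were above 0 in both, and their summed linear values were 553252 in the control and 635849 with DF, with 2 of 10 (Cidec and Cd36) higher by at least 1.5-fold and 0 lower. Over all 6761 genes that reached the level floor described below, 10.2% were higher and 10.9% lower by this limit. Lpl (17.55 in both libraries) leads these sums, with Fabp4 (16.67 and 16.73) and Cfd (16.58 and 16.92) next. The sorted values of the highest 140 genes, Dlk1 below included, are identical in both libraries, and 97.9% of 12337 sorted ranks lie within 0.1. A value thus gives a rank in its library rather than an amount. The linear multiples, shares and sums in these results rest on such values. Of 7 preadipocyte markers 5 were above 0 in both, and Cd34 and Cd24a were listed at 0 in both. Of the 4 at the level floor 3 were lower (Dlk1, Pdgfra and Ly6a), and Pdgfrb was at 10.51 and 10.58. The sum of the list, 101114 in the control and 38097 with DF, is mostly the value of Dlk1. No marker of macrophages (8 genes, sums of 35.6 and 63.5) or endothelium (7 genes, sums of 89.8 and 11.5) reached the floor, and Adgre1, Kdr and Tek were listed at 0 in both. Of 7 muscle markers Myod1, Myog and Myh3 were listed at 0, and Des was higher with DF (9.79 and 10.43), with sums of 917 and 1491. Below the floor Acta1 was at 1 (control) and 6.54 (DF), Ckm at 0 and 2.13, and Ttn at 4.83 and 4.08. The part of these marker differences in the results below was not tested, and in bulk RNA fewer cells of a type and less RNA per cell cannot be told apart.

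All 10 factors were above 0 in both libraries, and 7 reached the level floor of 8.18 (log2), the median of all values above 0, in at least 1 library. In the control the order from the highest was Ebf1, Klf9, Klf13, Klf15, Klf6, Ebf2, Ebf3, Klf7, Klf4 and Klf5. With DF it was Ebf1, Klf9, Ebf2, Klf15, Klf13, Klf6, Ebf3, Klf4, Klf7 and Klf5, so that Ebf2 stood in the third place instead of the sixth. The library kit reads transcript ends, and the sources used here do not state whether values were divided by length. The order and the family shares below therefore rank deposited values, and with no replicates it cannot be said which neighbours, such as Klf13 and Klf15, differ beyond their spread. A factor was counted when it reached the floor and differed by at least 1.5-fold. Of the 7 at the floor 1 was higher with DF (Ebf2) and 0 were lower, where 10.2% of the 6761 genes at the floor were higher and 10.9% lower. The count of factors is thus near that of the background. At 2-fold 0 of the 7 were counted, where 2.56% of genes at the floor were higher and 3.21% lower. Without the floor Klf7 was also counted as lower, where 18.3% of all genes above 0 in both libraries were higher and 15.9% lower. The median difference of the 10 was -0.11, and that of all 11744 genes above 0 in both libraries was 0.04. Over the 7 at the floor the median was 0.00, beside 0.01 for all genes at the floor.

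**Figure D1:**
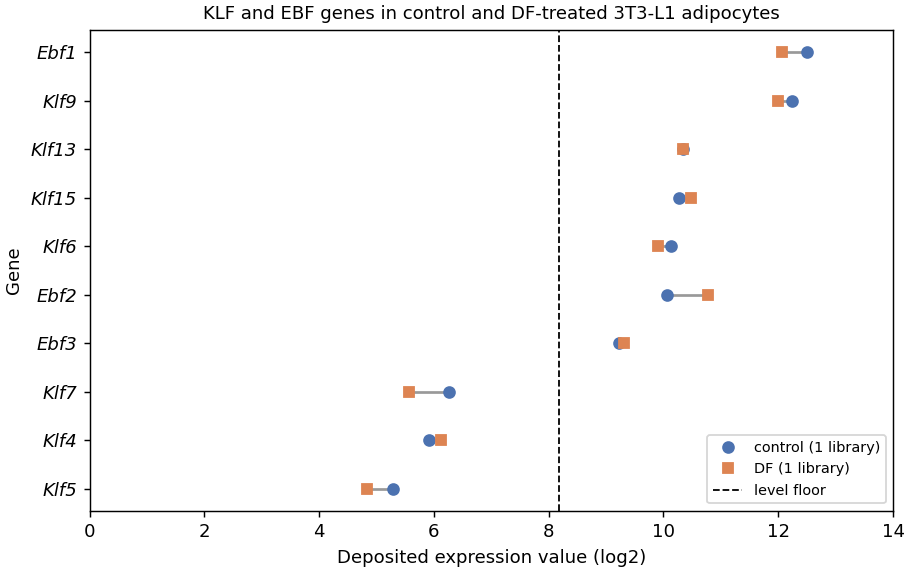
Deposited log2 values (horizontal axis) of the 10 factors in the control library (circles) and the DF library (squares), with the level floor of 8.18 as a dashed line. Ebf2 has the widest gap among the 7 genes right of the floor, the circle of Klf13 lies under its square, and Klf4, Klf5 and Klf7 lie left of the floor in both libraries.

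Ebf2, the factor of brown and beige fat precursors, had a value of 10.07 in the control and of 10.77 with DF. The difference of 0.70 is 1.63-fold, and its place among all genes went from 2934 to 1959. Among 1348 genes of similar level (10 to 11), 7.05% were higher by 1.5-fold and the 95th percentile of the differences was 0.65, just under the value of Ebf2. Of the genes listed as partners or targets, Prdm16, a regulator of the brown programme, and Ucp1, the uncoupling protein, were listed at 0 in both libraries. Cidea, a lipid droplet protein that brown fat expresses, was at 7.54 and 7.59, below the floor. Ppara, a nuclear receptor of fatty acid oxidation, had values of 6.10 (control) and 7.66 (DF), a 2.95-fold difference with both values below the floor. Among 1195 genes of mean level 6 to 7, 24.9% were higher and 23.9% lower by 1.5-fold. The 95th percentile there was 1.41, under the difference of 1.56 for Ppara.

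Ebf1, which promotes adipocyte differentiation, had the highest value of the 10 in both libraries, at 12.50 in the control and 12.06 with DF. The difference of -0.44 was 1.36-fold and did not reach the limit. Its mean level falls in the 12 to 13 range, where 7.35% of 476 genes were lower by 1.5-fold and the 5th percentile was -0.65. Ebf3, the least studied of these 3 in fat, was at 9.23 and 9.30 (difference 0.07). Ebf4 was listed at 0 in both. Ebf1 and Ebf2 thus lay on opposite sides of 0 while Ebf3 was near it. On the linear scale Ebf1 was 5.40 times Ebf2 in the control and 2.45 times with DF. Ebf1 made up 77.6% of the summed linear EBF values in the control and 64.2% with DF, Ebf2 14.4% and 26.3%, and Ebf3 8.04% and 9.50%. The EBF sum itself was 7464 in the control and 6651 with DF, a ratio of 0.891.

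Klf4 and Klf5, the early members of the relay, had low values, under the median of all values above 0. Klf4, which with Krox20 (encoded by Egr2) is reported to activate Cebpb in 3T3-L1 cells, had values of 5.92 (control) and 6.12 (DF). Klf5, which is induced by C/EBP beta and delta and acts with them on Pparg, was at 5.29 and 4.83. Both were below the floor in both libraries. The spread at such levels was wide: among 906 genes of mean level 5 to 6, 31.6% were higher and 28.6% lower by 1.5-fold, and among 1195 genes of mean level 6 to 7, 24.9% and 23.9%. The differences, -0.46 for Klf5 in the first range and 0.21 for Klf4 in the second, lie between the 25th and 75th percentiles of their ranges. Klf7, reported to hold back adipocyte formation, was also below the floor, at 6.27 and 5.56, and its difference of -0.71 lay between the 5th and 25th percentiles (-1.71 and -0.67) at a mean level of 5 to 6. The last exon of Klf7 is overlapped by the lincRNA gene Gm26649 on the other strand, and 313 of the 426 windows of 75 nt in the last 500 nt of its longest coding transcript are also in that gene's transcripts. The sources used here do not state whether reads were counted by strand, so the reads of Klf7 are less certain.

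Klf6, a factor reported to repress Dlk1 in preadipocytes together with the deacetylase HDAC3, had values of 10.12 (control) and 9.90 (DF), a difference of -0.22. Its reported target Dlk1 (Pref-1), which restrains differentiation, was lower with DF, at 16.55 and 15.10 (difference -1.45). The gene of its partner, Hdac3, was at 10.10 and 9.63 (difference -0.47), within 1.5-fold. Dlk1 stood at place 11 in the control and 52 with DF.

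Klf9, Klf13 and Klf15, the members with the highest values among the Krüppel-like factors, were all within 1.5-fold. Klf9, a glucocorticoid-induced factor that activates Pparg, had values of 12.24 (control) and 11.99 (DF), a difference of -0.25. Klf13, its close relative, had nearly the same value in both libraries, 10.33 and 10.34, at places 2532 and 2533. Klf15, also induced by glucocorticoids and an activator of the glucose transporter gene Slc2a4, was at 10.27 and 10.48, a difference of 0.21. Klf9 was lower, Klf15 higher and Klf13 level. The 25th and 75th percentiles of all genes were -0.26 and 0.27 at a mean level of 10 to 11, and -0.23 and 0.24 at 12 to 13. Klf13 and Klf15 lay between those of the first range, and Klf9 lay just below the 25th percentile of the second. Klf9 was 3.91 times Klf15 on the linear scale in the control and 2.86 times with DF. Klf9 held 51.2% of the summed linear values of the 17 KLF genes in the control and 46.5% with DF, Klf15 13.1% and 16.3%, Klf13 13.7% and 14.7%, and Klf6 11.8% and 10.9%. The KLF sums were 9439 and 8771, a ratio of 0.929.

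**Figure D2:**
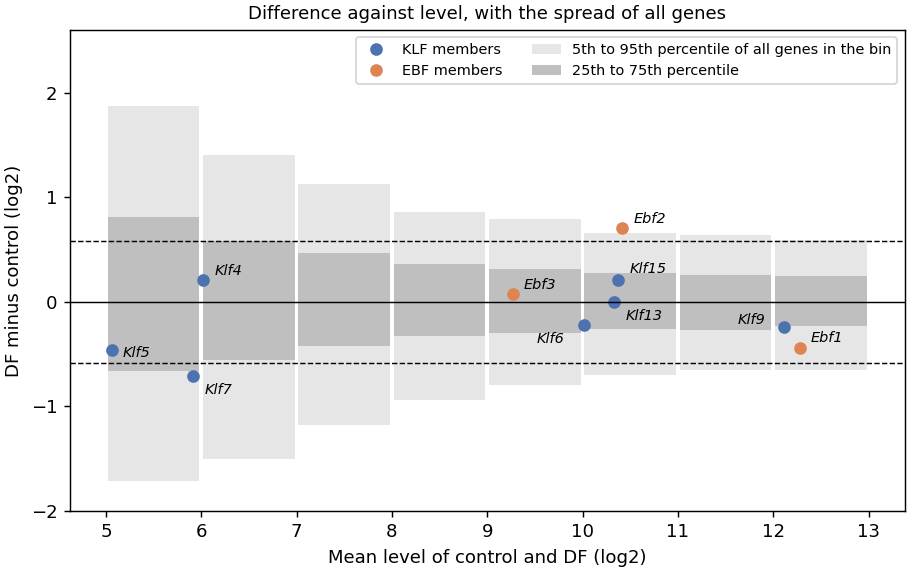
DF minus control in log2 units (vertical axis) of the 10 factors against their mean level (horizontal axis, log2), over bands that hold the central ranges of all genes above 0 in both libraries, by bins of 1 log2 unit. Ebf2 is the factor above the band from the 5th to the 95th percentile, and dashed lines mark 1.5-fold.

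**Figure D3:**
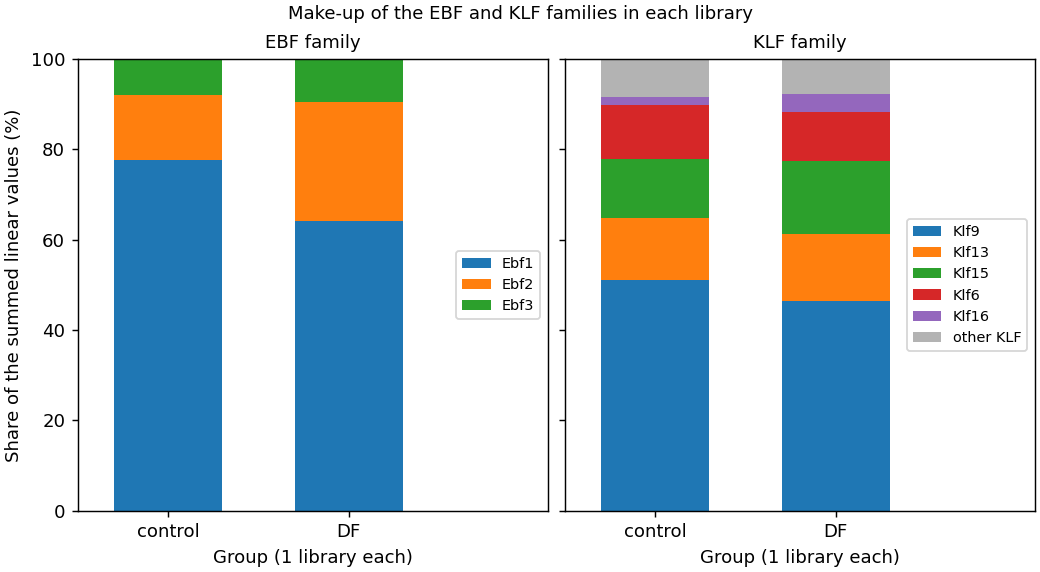
Share of each gene in the summed linear values of its family (vertical axis, %), by group with 1 library each. The share of Ebf2 is 14.4% in the control and 26.3% with DF, while the KLF bars are led by Klf9 in both libraries.

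Of the 10 other KLF genes 6 were above 0 in both libraries, and 1, Klf16, reached the floor, and only through its DF value. Klf16, a relative of Klf9 and Klf13, had values of 7.49 (control) and 8.39 (DF), a difference of 0.91. Klf2 and Klf3, reported to restrain adipogenesis, were below the floor at 7.40 and 6.83 and at 7.38 and 6.87. Klf10, a factor induced by TGF-beta, was at 7.72 and 7.54, and its relative Klf11 at 5.94 and 6.40. Klf8, Klf14 and Klf17 were listed at 0 in both libraries. Klf1, the erythroid factor, was listed at 0 in the control and at 4.59 with DF, and Klf12 was at 0.32 and 3.41. The lowest value above 0 was 0.32 in the control and 2.13 with DF, so such values sit at the bottom of unequal scales. Of the 9 Sp genes, whose products bind the same GC boxes, 4 were above 0 in both libraries. The widely expressed Sp1 was at 11.01 and 11.26 and Sp3 at 10.95 and 11.20, each 0.25 higher and within 1.5-fold. Sp2 was at 7.62 and 8.10 and Sp4 at 6.88 and 5.63, both below the floor.

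Among 14 partners and regulators of these factors, 10 reached the floor, and 3 were lower with DF and 0 higher by 1.5-fold, where 10.9% of all genes at the floor were lower and 10.2% higher. Cebpb, an inducer of Klf5 and reported target of Klf4, had values of 14.36 (control) and 13.02 (DF). Its partner Cebpd was at 9.38 and 8.71. The gene spans of both overlap coding genes on the other strand. These are Tmem189 (8.95 and 9.14) for Cebpb and Spidr (7.46 and 7.37) for Cebpd. Whether exons overlap or reads are shared was not tested. Wwp1, a ubiquitin ligase that acts on the KLF5 protein, had values of 9.37 (control) and 8.60 (DF), a difference of -0.76, and the coding gene Gm12353 overlaps it on the other strand. Klf5 itself had a lower value with DF too, but below the floor. Fbxw7, another ligase of KLF5, was at 9.26 and 9.22. Ctbp1, a corepressor bound by KLF3, was at 13.35 and 13.21. The other 7 at the floor, these among them, lay within 1.5-fold. The zinc finger gene Zfp521, whose product opposes Ebf1 in adipogenesis, was below the floor at 6.03 and 4.73, and Egr2 at 4.79 and 5.63.

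Of 13 reported targets 7 reached the floor, and 2 were lower and 0 higher, beside the same shares of all genes. These were Dlk1 and Cebpb, which is also counted among the partners. Pparg, the shared target of Klf5, Klf9, Klf15 and the EBF factors, was at 11.94 and 11.84, and Cebpa at 15.56 and 15.64. Slc2a4, the insulin-responsive glucose transporter gene, was at 12.46 in both libraries. Prodh, a proline-degrading enzyme gene activated by Klf15 in liver and muscle, was below the floor at 6.80 and 7.54. Of 10 glucocorticoid targets, the class to which Klf9 and Klf15 belong, 8 reached the floor. Dusp1, a MAP kinase phosphatase gene, was at 8.15 and 9.22, and Fkbp5, a co-chaperone of the receptor, at 9.73 and 8.82. Of the 8 at the floor these were the ones beyond 1.5-fold, 1 higher and 1 lower. Over all genes at the floor 10.2% were higher and 10.9% lower. Dusp1 reached the floor only through its DF value. The span of Dusp1 overlaps the coding gene Ergic1 on the other strand, which was at 11.21 and 11.46. Whether their exons overlap or reads are shared was not tested. The median over the 9 above 0 in both libraries was 0.10. The metallothionein genes Mt2 and Mt1, the highest of the list, were at 13.07 and 13.08 and at 12.90 and 13.13. Below the floor Pdk4, a kinase gene that restrains glucose oxidation, was at 6.97 and 6.14, and Cdkn1c, a cell cycle inhibitor gene, was at 4.33 in the control and listed at 0 with DF.

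**Figure D4:**
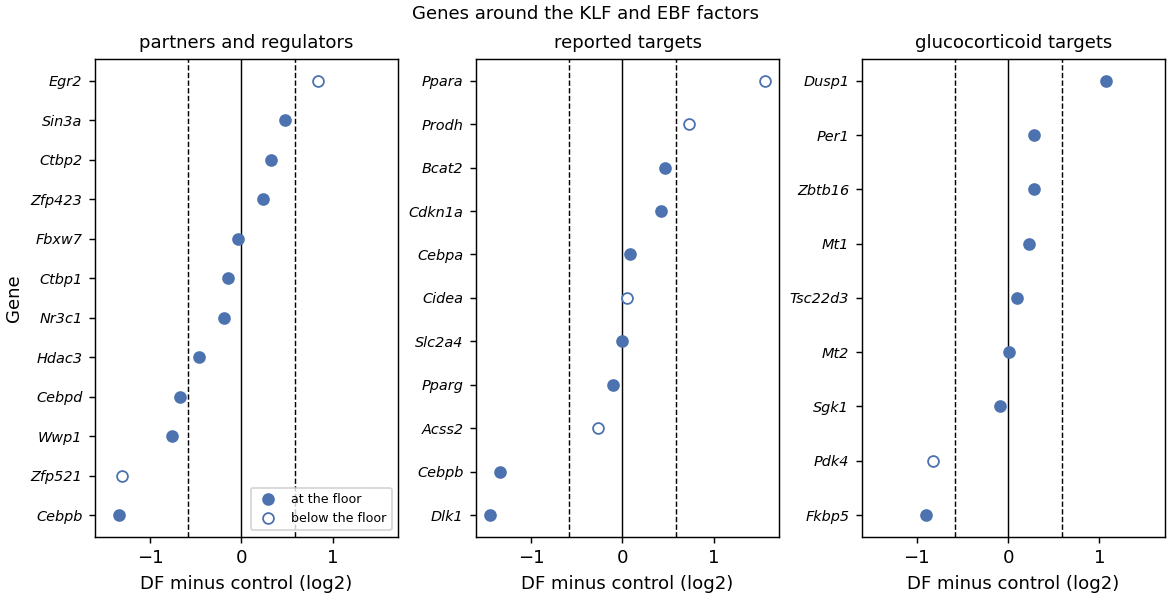
DF minus control in log2 units (horizontal axis) for genes above 0 in both libraries in each of 3 lists, with filled circles for genes at the level floor, open circles for those below it and dashed lines at 1.5-fold. Cebpb and Dlk1 have the lowest values among the filled circles.

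Promoter windows of 300 bases, 250 before to 50 after a RefSeq start site (GRCm38.p6), were matched by symbol for 8 of the 10 factors, with 9 windows in all because Ebf1 has more than 1. Klf5 and Ebf2 had no window. The motifs searched on both strands were CCACCC (the CACCC box) and GGGCGG (the GC box). A GC box was present in 6 of the 9 windows, beside 35.7% of all 32851 windows, and a CACCC box in 2 of the 9, beside 31.5%. The 6 windows with a GC box had a GC content of 58.3% to 77%, where the median of all windows was 52.7%. The part of base composition in these shares was not tested. The windows of Klf4, Klf13 and Ebf3 held 4, 3 and 3 GC boxes, and those of Klf9 and Ebf1 held neither motif. The windows below show Klf13, whose values were nearly equal, Ebf1, which had the highest values, and Cebpb and Dlk1, the reported KLF targets that were lower with DF. Capitals mark the motif matches, and boxes that overlap run together. Each window is 5′ to 3′ on the strand of its gene: Klf13 at chr7:63938866-63939165 (minus strand), Ebf1 at chr11:44617850-44618149 (plus), Cebpb at chr2:167688665-167688964 (plus) and Dlk1 at chr12:109452573-109452872 (plus).
Klf13: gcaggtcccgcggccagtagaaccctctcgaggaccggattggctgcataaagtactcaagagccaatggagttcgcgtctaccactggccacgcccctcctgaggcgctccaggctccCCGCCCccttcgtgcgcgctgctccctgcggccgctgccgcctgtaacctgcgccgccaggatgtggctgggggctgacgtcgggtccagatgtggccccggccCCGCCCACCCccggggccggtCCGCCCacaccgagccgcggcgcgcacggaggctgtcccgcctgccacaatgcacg
Ebf1: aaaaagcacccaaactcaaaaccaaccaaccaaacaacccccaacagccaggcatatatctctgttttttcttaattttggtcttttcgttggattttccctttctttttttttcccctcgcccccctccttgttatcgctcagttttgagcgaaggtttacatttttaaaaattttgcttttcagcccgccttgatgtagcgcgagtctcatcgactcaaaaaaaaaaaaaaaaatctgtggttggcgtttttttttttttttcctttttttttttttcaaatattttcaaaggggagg
Cebpb: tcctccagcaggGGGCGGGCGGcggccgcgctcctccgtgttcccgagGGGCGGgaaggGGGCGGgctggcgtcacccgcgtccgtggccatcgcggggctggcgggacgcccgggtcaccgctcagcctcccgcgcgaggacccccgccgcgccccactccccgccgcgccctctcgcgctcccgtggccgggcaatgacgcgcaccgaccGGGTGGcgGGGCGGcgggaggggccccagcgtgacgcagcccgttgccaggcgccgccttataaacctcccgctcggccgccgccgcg
Dlk1: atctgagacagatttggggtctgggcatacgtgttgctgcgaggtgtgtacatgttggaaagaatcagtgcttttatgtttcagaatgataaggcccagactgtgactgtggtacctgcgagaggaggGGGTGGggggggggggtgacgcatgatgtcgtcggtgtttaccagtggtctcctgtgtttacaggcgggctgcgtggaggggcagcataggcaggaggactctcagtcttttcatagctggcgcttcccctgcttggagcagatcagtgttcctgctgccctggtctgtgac
The GC content ran from 36.7% in this Ebf1 window, which carries long runs of T and no match, to 80.7% in that of Cebpb. The Cebpb window held 5 GC boxes and 1 CACCC box, and the Dlk1 window 1 CACCC box. These letters describe the windows and are no evidence of binding.

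The EBF genes are long and the KLF genes short (GENCODE vM21, GRCm38). Ebf1 spans 391 kb on chromosome 11 (44617317 to 45008091, plus strand), Ebf2 198 kb on chromosome 14 (67233292 to 67430918, plus) and Ebf3 121 kb on chromosome 7 (137193673 to 137314445, minus). Their longest coding transcripts have 16, 17 and 16 exons. The KLF genes run from 5.32 kb for Klf4 on chromosome 4 (55527143 to 55532466, minus) to 92.8 kb for Klf7 on chromosome 1 (64029447 to 64122282, minus), with 2 to 5 exons. Klf9 lies on chromosome 19 (23141226 to 23168134, plus), Klf13 on chromosome 7 (63886351 to 63938915, minus) and Klf15 on chromosome 6 (90462576 to 90475238, plus). Klf6 lies on chromosome 13 (5861482 to 5870394, plus) and Klf5 on chromosome 14 (99298691 to 99315036, plus). In 9 of the 10, all but Klf7, none of the 426 windows of 75 nt in the last 500 nt of the longest coding transcript occurred in a transcript of another gene, so no read of that length from these ends matches an annotated transcript of another gene exactly. The antisense gene Gm10860 overlaps the last exon of Ebf2 on the other strand, but its annotated transcripts hold none of those windows.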

How the data were processed

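Messenger RNA of 1 control and 1 DF-treated 3T3-L1 culture was sequenced. Per the labels' protocols, 500 ng of total RNA went into each library, built with a Lexogen kit for transcript ends and read as single 75 nt reads. Bowtie2, edgeR and the mm10 build are named in the submitters' processing notes; versions, roles, annotation, counter and strand setting are not stated in the sources used here. The deposited values were read as log2 values from their range and decimals; the headers give a gene symbol and a sample name, and no source states the log base, an offset or the normalization. The highest 140 sorted values are identical in both libraries and 97.9% of 12337 sorted ranks lie within 0.1, as after quantile normalization, so differences compare relative positions. Linear values under 1000 all lie on a grid of 1/8, so other libraries, not analysed here, may have entered the normalization. Depth is unknown, and no counting interval was computed.

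Differences are DF minus control with no pseudocount, computed with Python 3.11.15, numpy 2.4.6 and pandas 2.3.3. A gene was examined at or above the median of values above 0 (8.18, or 290.75 linear) in at least 1 library and counted at 1.5-fold. Linear values are the log2 values raised back from base 2, and 0 where 0 is listed. No test was possible with 1 library a group. The counting procedure was run on simulated data with planted shifts well beyond the limit and little noise. Such a run checks the code and gives no error rate for these data. The members and lists were chosen with earlier results of these data known. The rule named all 10 factors and allowed family genes above 0 and, in other lists, the 2 most abundant members and those counted. Other family genes listed at 0 in a library and markers listed at 0 were named after their values were seen. So were genes below the floor that are partners or reported targets of a factor (Prdm16, Ucp1, Cidea, Ppara, Prodh, Zfp521, Egr2) or glucocorticoid targets (Pdk4, Cdkn1c). The same holds for Fabp4, Acta1, Ckm, Ttn, Hdac3, Fbxw7, Pparg and Slc2a4. Protein features that had been planned were not computed. Alternatives were a 2-fold limit, no floor, a floor in both libraries, centring, a pseudocount of 8, re-ranking and, chosen after seeing the data, reading the values as offset by 1. The B-cell marker list is not reported here.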

Additional observations from a re-analysis of the deposited data

How the results depend on the processing

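With a 2-fold limit 0 of the 7 factors and 0 of the 3 other family genes at the floor were counted. The partners, reported targets and glucocorticoid targets together held 24 genes at the floor. Of these 2 (Cebpb and Dlk1) were lower and 1 (Dusp1, a glucocorticoid target) higher. Over all genes at the floor 2.56% were higher and 3.21% lower by 2-fold. With no level floor 1 of the 10 factors was higher (Ebf2) and 1 lower (Klf7). Of 10 other family genes above 0 in both libraries 2 were higher (Klf12 and Klf16) and 1 lower (Sp4). Of 31 genes of the joint list above 0 in both, 4 were higher (Egr2, Prodh, Ppara and Dusp1) and 7 lower, with Zfp521 and Pdk4 added. Over all 11744 genes above 0 in both libraries 18.3% were higher and 15.9% lower. With the floor required in both libraries the counts of other family genes and of the joint list that were higher each went to 0. The share over all genes under that floor was not computed. Over the factors at the floor the median difference was 0.0011 instead of -0.11. The settings themselves bring this about, since they drop or add genes. Of 47 comparisons of counts and medians with an alternative, 37 stayed within 1.5 times the count or 0.1 log2 units of the median. Centring, a pseudocount of 8, re-ranking and the offset of 1 moved no factor's difference by more than 0.1 log2 units; centring turned that of Klf13 from 0.0011 to -0.011. No paired analysis was possible because each group holds 1 library. No library could be left out, for the same reason, and unknown depth leaves the precision of low values such as those of Klf4, Klf5 and Klf7 unknown.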
